A study of Mus musculus with 29 samples.

Results

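The 10 genes described here encode secreted inflammatory cytokines and their relatives: Il1a, Il1b and Il18 of the interleukin-1 family, Il6 and Osm of the interleukin-6 family, Il12b and Il27 of the interleukin-12 family, and Tnf, Il15 and Il10. They were chosen by name, as 10 of the 21938 protein-coding genes of the annotation (GENCODE vM21 on the mouse genome GRCm38). For each gene, every peak that overlapped the gene body extended by 20 kb on each side was taken from the 25 deposited peak lists, and peaks with the same chromosome, start and end were counted once as 1 region. The 25 lists held 1008691 such regions, of which 700 fell in the 10 gene windows. The windows were 42.6 to 112 kb long with a median of 46.7 kb, against a median of 57.4 kb for all genes.

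Inflammatory cytokines carry danger signals between immune cells. Interleukin-1 alpha, interleukin-1 beta and interleukin-18 act through receptors that share the intracellular TIR domain of Toll-like receptors, and interleukin-1 beta and interleukin-18 are made as precursors that caspase-1 cleaves. Microglia, the resident macrophages of the brain, are a main source of interleukin-1, tumour necrosis factor and interleukin-6 in that tissue. IRF8 is a transcription factor of the myeloid lineage that binds weakly to DNA on its own and pairs with the ETS factor PU.1 on composite ETS-IRF sites. H3K4me1 marks enhancers whether or not they are active, and H3K27ac marks active enhancers and promoters.

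The assay was CUT&RUN, in which an antibody directs a nuclease to a chromatin protein and the released fragments are sequenced. IRF8 was mapped with a GFP antibody in female IRF8-EGFP mice, whose IRF8 carries a fluorescent tag: in microglia at postnatal day 9 (P9, 4 libraries), at postnatal day 14 (P14, 3 libraries) and in adults (3 months, 3 libraries), and in peritoneal macrophages (3 libraries). PU.1, H3K27ac and H3K4me1 were each mapped in adult female wild-type (WT) and IRF8KO (KO) microglia sorted at 3 months, with 2 libraries for each target and genotype. The labels do not say how Irf8 was inactivated or in which cells, or whether the libraries come from separate animals, so the spread between libraries may be technical, and peak lists cannot show whether Irf8 was expressed. The macrophage libraries were grouped by their titles, although another label calls their source microglia.

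Library depth ran from 7.25 to 24.7 M fragments and did not follow age: 13.4 to 20.9 M at P9, 13.9 to 24.4 M at P14 and 7.51, 24.7 and 7.25 M in the adult. The number of regions per list did follow age, from 1168 to 2068 at P9 through 7931 to 19243 at P14 to 17048 to 29667 in the adult. Each stage was called against an IgG control of its own, so stage and control cannot be told apart. Replicate 3 of the macrophages, from a second batch, listed 9788 regions but 5 at the cytokine genes, against 38 and 30 in replicates 1 and 2. The 6 microglia marker genes all had adult IRF8 and WT H3K27ac consensus regions (regions found in at least 2 libraries of a group). Adult IRF8 ones were also at 3 of 3 B cell, 2 of 3 oligodendrocyte and 2 of 6 peritoneal macrophage marker genes. They were at 1 of 3 neuron, 1 of 3 astrocyte, 1 of 3 T cell and 0 of 3 neutrophil genes, against 50.6% of all genes. Of the markers of other cells, 0 of 3 neuron and 0 of 3 neutrophil genes had a WT H3K27ac consensus region, and 3 of 6 peritoneal macrophage, 2 of 3 oligodendrocyte, 2 of 3 T cell, 2 of 3 B cell and 1 of 3 astrocyte genes did. Of all genes, 61.7% had such a region. The part of other cells in the results was not tested.

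The regions on which the genotype comparison turned are shown first, as 300 bases of the forward strand of GRCm38 at 5 WT PU.1 regions and as the 250 bases before the annotated start of Il6 (from the RefSeq promoter table, GRCm38.p6). The first held PU.1 in both genotypes, the next 4 held PU.1 in both WT lists and in neither KO list, and the last lay in an H3K27ac region that neither KO list held. Capitals mark matches to 5 motifs on either strand: the ETS-IRF composite (GGAA, any 2 bases, GAAA), the IRF element (GAAA, any 2 bases, GAAA), the PU.1 site (GAGGAAGT), the NF-kB site (GGG, any 2 bases, TTTCC) and the AP-1 site (TGANTCA). A match on the reverse strand appears as its reverse complement. The Il1b window is centred on the called region. The other 4 were placed on the composite and IRF matches of the region, so that they show those matches by choice. The Il6 window begins 64 bases and the Il15 window 132 bases before the called region, and each distance is that of the window centre from the start of the gene.
Il1b, 9.84 kb upstream (chr2:129380824-129381123; NF-kB site, then PU.1 site reversed): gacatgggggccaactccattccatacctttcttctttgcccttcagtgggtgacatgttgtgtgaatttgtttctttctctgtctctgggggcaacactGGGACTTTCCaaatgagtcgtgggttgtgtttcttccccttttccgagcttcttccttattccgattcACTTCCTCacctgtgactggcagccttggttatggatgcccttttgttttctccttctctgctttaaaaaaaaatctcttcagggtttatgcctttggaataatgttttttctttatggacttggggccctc
Il6, 19.5 kb upstream (chr5:29993496-29993795; IRF element reversed, then PU.1 site): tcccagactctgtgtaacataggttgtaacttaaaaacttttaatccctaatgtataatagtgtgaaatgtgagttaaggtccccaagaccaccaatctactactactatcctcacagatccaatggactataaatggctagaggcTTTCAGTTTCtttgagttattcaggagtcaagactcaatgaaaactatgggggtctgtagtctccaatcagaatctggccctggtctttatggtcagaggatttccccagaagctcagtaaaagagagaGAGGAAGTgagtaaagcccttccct
Il12b, 17.6 kb upstream (chr11:44382309-44382608; IRF element reversed, composite reversed, composite): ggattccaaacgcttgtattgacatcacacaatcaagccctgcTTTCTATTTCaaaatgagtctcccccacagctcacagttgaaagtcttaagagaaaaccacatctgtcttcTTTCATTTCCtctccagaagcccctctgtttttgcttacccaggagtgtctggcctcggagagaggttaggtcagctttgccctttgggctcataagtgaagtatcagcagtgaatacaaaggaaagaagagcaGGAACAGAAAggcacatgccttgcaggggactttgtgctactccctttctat
Il15, 32.4 kb into the gene (chr8:82370632-82370931; IRF element, then composite): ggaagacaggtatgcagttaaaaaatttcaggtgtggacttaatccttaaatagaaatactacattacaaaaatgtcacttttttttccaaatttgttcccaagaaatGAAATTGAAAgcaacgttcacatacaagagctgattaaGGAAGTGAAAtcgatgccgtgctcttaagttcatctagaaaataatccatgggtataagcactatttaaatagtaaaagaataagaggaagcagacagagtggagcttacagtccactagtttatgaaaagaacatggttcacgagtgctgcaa
Il18, 0.962 kb upstream (chr9:50553715-50554014; IRF element): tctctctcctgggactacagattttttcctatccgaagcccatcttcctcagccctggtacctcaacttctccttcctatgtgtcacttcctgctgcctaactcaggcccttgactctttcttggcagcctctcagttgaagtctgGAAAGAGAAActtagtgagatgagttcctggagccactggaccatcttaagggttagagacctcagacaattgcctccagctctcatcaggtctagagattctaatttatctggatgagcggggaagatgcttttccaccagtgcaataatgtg
Il6 promoter (chr5:30012864-30013113; AP-1 site, then NF-kB site): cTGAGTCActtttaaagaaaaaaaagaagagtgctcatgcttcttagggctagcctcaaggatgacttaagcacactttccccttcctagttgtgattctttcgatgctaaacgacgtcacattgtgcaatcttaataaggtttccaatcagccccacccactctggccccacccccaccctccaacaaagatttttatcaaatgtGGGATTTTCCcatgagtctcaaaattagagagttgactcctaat
The first 5 windows are intergenic for Il1b, Il6 and Il12b, in an intron of Il15, and in an intron of Bco2, the gene next to Il18.

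A consensus region was defined as one found in at least 2 libraries of a group. At P9, 2 of the 10 genes had an IRF8 consensus region, Il1a and Il1b, against 7.00% of all genes. At P14, 8 genes had one, against 32.0%, in the adult 9 against 50.6%, and in peritoneal macrophages 9 against 39.9%. The number of consensus regions at the 10 genes was 3 at P9, 18 at P14, 23 in the adult and 24 in macrophages. Adult microglia had a median of 2.50 regions per cytokine gene, against 1.00 over all genes. Among genes that had a WT H3K27ac consensus region, which 9 of the 10 had, the shares with IRF8 were 10.8% at P9, 49.3% at P14, 76.4% in the adult and 58.2% in macrophages, nearer to those of the cytokine genes. With the window cut to 5 kb on each side, the number of genes with a region was 1 at P9, 4 at P14, 6 in the adult and 7 in macrophages, against 4.42%, 22.4%, 39.1% and 29.2% of all genes. With all IRF8 lists cut to the same length, the regions numbered 3 at P9, 4 at P14, 4 in the adult and 1 in macrophages. They lay at 2, 3, 4 and 1 of the 10 genes, against 5.84%, 5.31%, 5.41% and 4.39% of all genes. At equal length the adult thus had 1 region more than P9, and macrophages had the fewest.

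**Figure D1:**
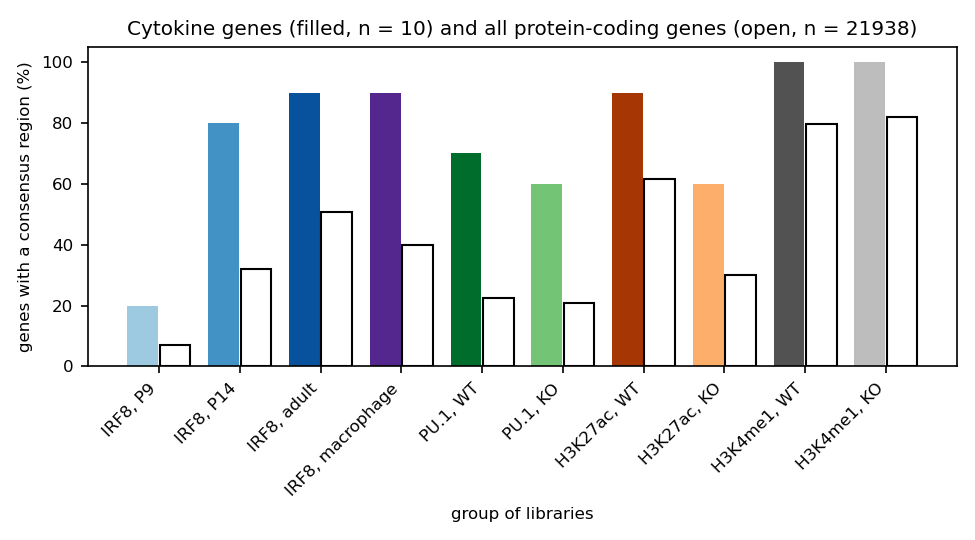
Share of genes with a consensus region in the window (y axis, percent) in each group of libraries (x axis), for the 10 cytokine genes (filled bars) and all 21938 protein-coding genes (open bars). The filled bar is the taller in each group, from 2 of 10 genes against 7.00% for IRF8 at P9 to 10 of 10 against 82.1% for H3K4me1 in the KO.

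Among the interleukin-1 family, Il1b, which encodes a principal fever-inducing cytokine, had the most widely shared IRF8 region of the 10 genes. The region lay 9.75 kb upstream of the start in the adult (chr2:129379150-129382627, intergenic) and was found in all 13 IRF8 lists. Its fold enrichment over the control, as the authors' peak caller gave it, was 8.73, 8.76, 16 and 6.75 in the P9 lists and 17.9, 26.0 and 11.2 in the P14 lists. In the adult lists it was 20.6, 29.7 and 16.8, and in macrophages 15.7, 13.8 and 5.12. These values describe each list, and no order between ages was read from them, since each age had a control of its own. Ranked by −log10 p within each list, the adult region stood at a mean percentile of 98.8, where 100 would be the most significant region. A region 2.04 kb upstream, over an exon of the antisense transcript gene Il1bos, was in 0 of 4 P9, 1 of 3 P14 and 3 of 3 adult lists.

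Il1a, which encodes the cytokine's membrane-associated relative, lies on the same chromosome and had 4 adult consensus regions. The strongest lay 10.5 kb upstream (chr2:129319115-129321815, intergenic), with fold enrichments of 18.7, 23.5 and 16.2 in the adult. It was in 3 of 4 P9 lists (9.12, 6.0 and 6.99), in 3 of 3 P14 lists and in 2 of 3 macrophage lists (4.81 and 3.67). Its mean percentile was 98.1 in the adult and 31.7 in macrophages, which are ranks within lists of different length. In macrophages the most enriched Il1a region lay instead 3.80 kb inside the gene (chr2:129305676-129306677, 9.31 and 10.1). That region was in 2 of 3 adult lists at 4.15 and 7.58.

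Il18 encodes a cytokine that induces interferon gamma. Its strongest adult region spanned the start (centre 0.962 kb upstream, chr9:50552109-50555621, in part an intron of Bco2), with fold enrichments of 12.9, 13.8 and 10.5. The same place was in 1 of 4 P9 lists and in 3 of 3 P14 lists (7.59, 8.67 and 5.27). IRF8 regions in the Il18 window numbered 0, 0, 1 and 0 at P9, 5, 4 and 3 at P14 and 5, 7 and 4 in the adult. The P9 libraries did not overlap the later ones, and P14 and adult overlapped.

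Il6, which encodes an acute-phase cytokine, had 0 IRF8 regions in each of the 4 P9 lists, 3, 4 and 2 at P14 and 5, 4 and 4 in the adult. The adult regions included a distal site 19.2 kb upstream (chr5:29993289-29994580; 11.9, 16.4 and 12.3) and a broad region over the promoter (centre 0.722 kb upstream, chr5:30010906-30013878; 7.99, 5.59 and 8.21). A further region lay 23.1 kb past the start (6.85, 8.97 and 6.89). At P14 the distal site was listed in all 3 libraries, at 5.41, 7.23 and 5.56.

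Il12b, which encodes the p40 subunit shared by interleukin-12 and interleukin-23, carried 1 adult consensus region (18.0 kb upstream, chr11:44380543-44383500, intergenic). Its fold enrichment was 15.0, 19.3 and 11.1 in the adult and 12.1, 11.6 and 8.49 at P14, and 1 of 4 P9 lists held a peak there. The macrophage consensus region nearby (19.3 kb upstream) was at 4.37 and 3.20 in 2 lists, and no macrophage list had a peak over the P14 region. Il27, the other member of that family, had regions in 1 of 4 P9, 1 of 3 P14 and 3 of 3 adult lists. Its adult region 7.21 kb upstream was at 5.93, 5.54 and 5.06.

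Tnf lies in a dense cluster with Lta, Ltb, Lst1 and Nfkbil1, so a region in its window need not belong to it. Its strongest adult region (chr17:35185959-35189632; 10.9, 8.31 and 3.79) lay 14.2 kb past the start, at Lst1. The adult consensus held regions 8.04 and 17.2 kb upstream too, each in 2 of 3 lists, and none over the Tnf start. Il15, which sustains natural killer cells and memory T cells, had 1 adult consensus region in its intron (19.9 kb past the start, chr8:82382037-82384595; 8.82 and 9.29, absent from replicate 3). Osm, which encodes oncostatin M, had 1 region 13.9 kb upstream (10.4 and 7.13, absent from replicate 3). Il10, which encodes an anti-inflammatory cytokine, had no IRF8 consensus region in microglia at any age. Regions in its window numbered 0 in all P9 lists, 0, 1 and 0 at P14 and 0, 2 and 0 in the adult.

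**Figure D2:**
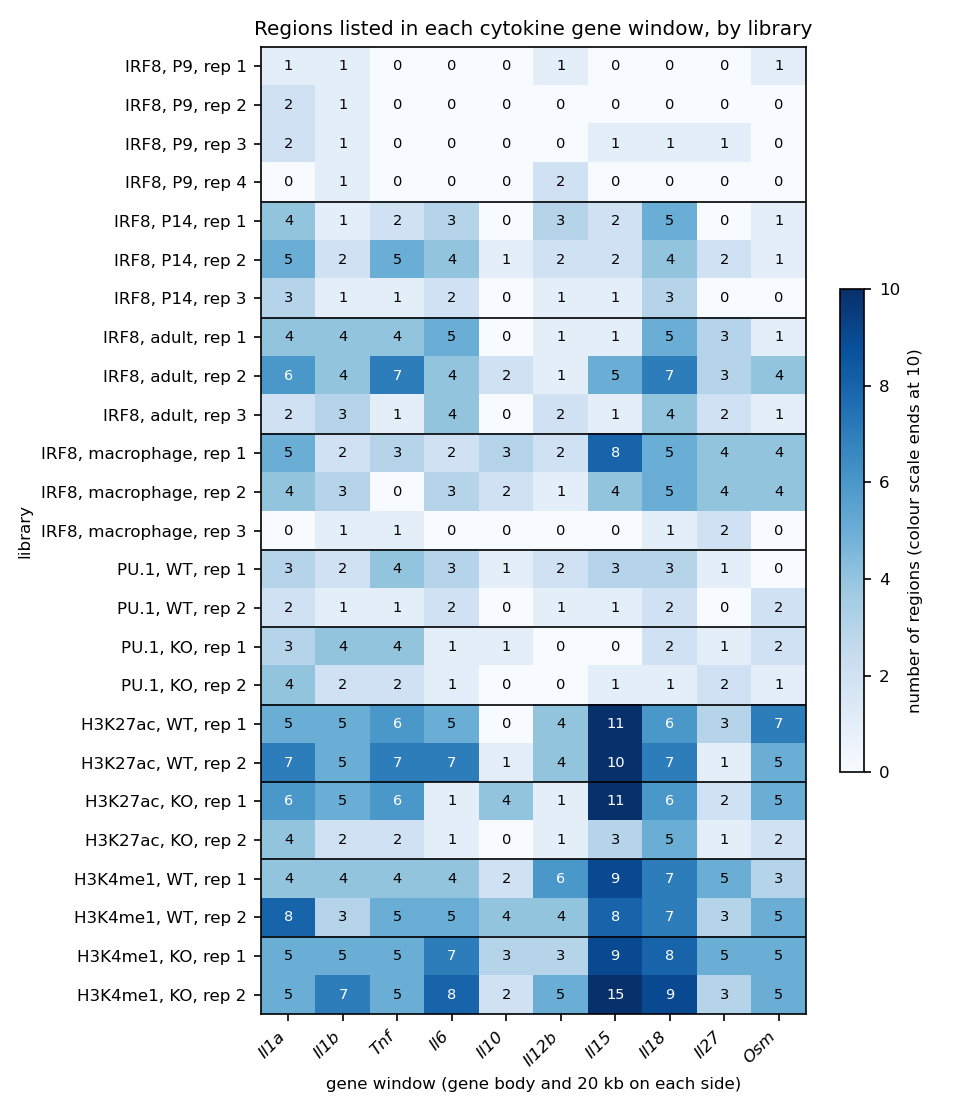
Number of regions (colour and printed value) in the window of each cytokine gene (x axis, gene body and 20 kb on each side) in each of the 25 libraries (y axis). The P9 rows hold 3 to 6 regions in all, the adult IRF8 rows 20 to 43, and replicate 3 of the macrophages 5.

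The order of the 3 ages was tested with an exact two-sided Jonckheere-Terpstra permutation test of the number of IRF8 regions per window over the 10 microglia libraries (4200 arrangements, smallest p 0.000476, Benjamini-Hochberg adjustment over the 16472 genes with a region). The number rose with age at 5 of the 10 genes, against 46.0% of the genes tested, and fell at none, against 0% of them. The median statistic was 27.5 over the cytokine genes and 26.5 over all genes, out of a largest possible 33. Il6 had an adjusted p of 0.0156, Il18 of 0.0183, Il1b of 0.0211, Tnf of 0.0283 and Il27 of 0.0424 in this exact test. Adjusted p was 0.0703 for Il15, 0.0709 for Il1a, 0.0837 for Osm, 0.333 for Il10 and 0.439 for Il12b in the same exact test. The share of cytokine genes that passed was near that of all genes. With every list shortened to its 1168 most significant regions, 0 of 7 cytokine genes and 0 of 3899 genes passed (0 and 147 at an unadjusted p under 0.05). Without adult replicate 2, the longest adult list, 1 of the 10 passed (Il6), against 12.2% of the genes tested, and without any P9 replicate again 1 (Il6), against 9.72% to 10.8%. With the replicate number as a block, 0 of the 10 and 0 of 16464 genes passed the exact test (4 and 5623 at an unadjusted p under 0.05), whose smallest p was then 0.00926.

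Peritoneal macrophages and adult microglia shared IRF8 regions at several cytokine genes and differed at others, with no test, since 3 libraries against 3 cannot give an exact permutation p under 0.1. In macrophages Il10 had 2 consensus regions, 3.79 kb upstream (chr1:131015587-131016533; 6.42 and 5.55) and 1.09 kb inside the gene (5.40 and 6.28). The first was in no microglia list and the second in 1 of 3 adult lists. Il27 had regions at its start (0.436 kb inside, chr7:126593702-126595308; 7.06 and 4.28) and 11.9 kb upstream (chr7:126606114-126607620; 9.44, 5.67 and 3.59) that no microglia list held. Osm regions 18.2 and 3.64 kb upstream, and Il15 regions 4.35 and 0.221 kb past the start, were likewise in 2 of 3 macrophage lists and in none from microglia. In the other direction, Tnf had 3 consensus regions in the adult and 0 in macrophages, although 2 of 3 macrophage lists held a region in its window. The adult Tnf regions 14.2 kb past the start and 8.04 kb upstream each had a peak in 1 of 3 macrophage lists. The Il6 promoter region and the Il1b region 10.6 kb past the start were each in 3 of 3 adult lists and 1 of 3 macrophage lists. These macrophage values rest on batch 1: a consensus built without replicate 1 or without replicate 2 held 3 regions at the 10 genes in place of 24. The within-batch comparison, replicates 1 and 2 of each, gave the values above without replicate 3. How many of all 12063 macrophage and 16935 adult consensus regions differ in this way was not computed. These differences are therefore not shown to be particular to the cytokine genes.

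**Figure D3:**
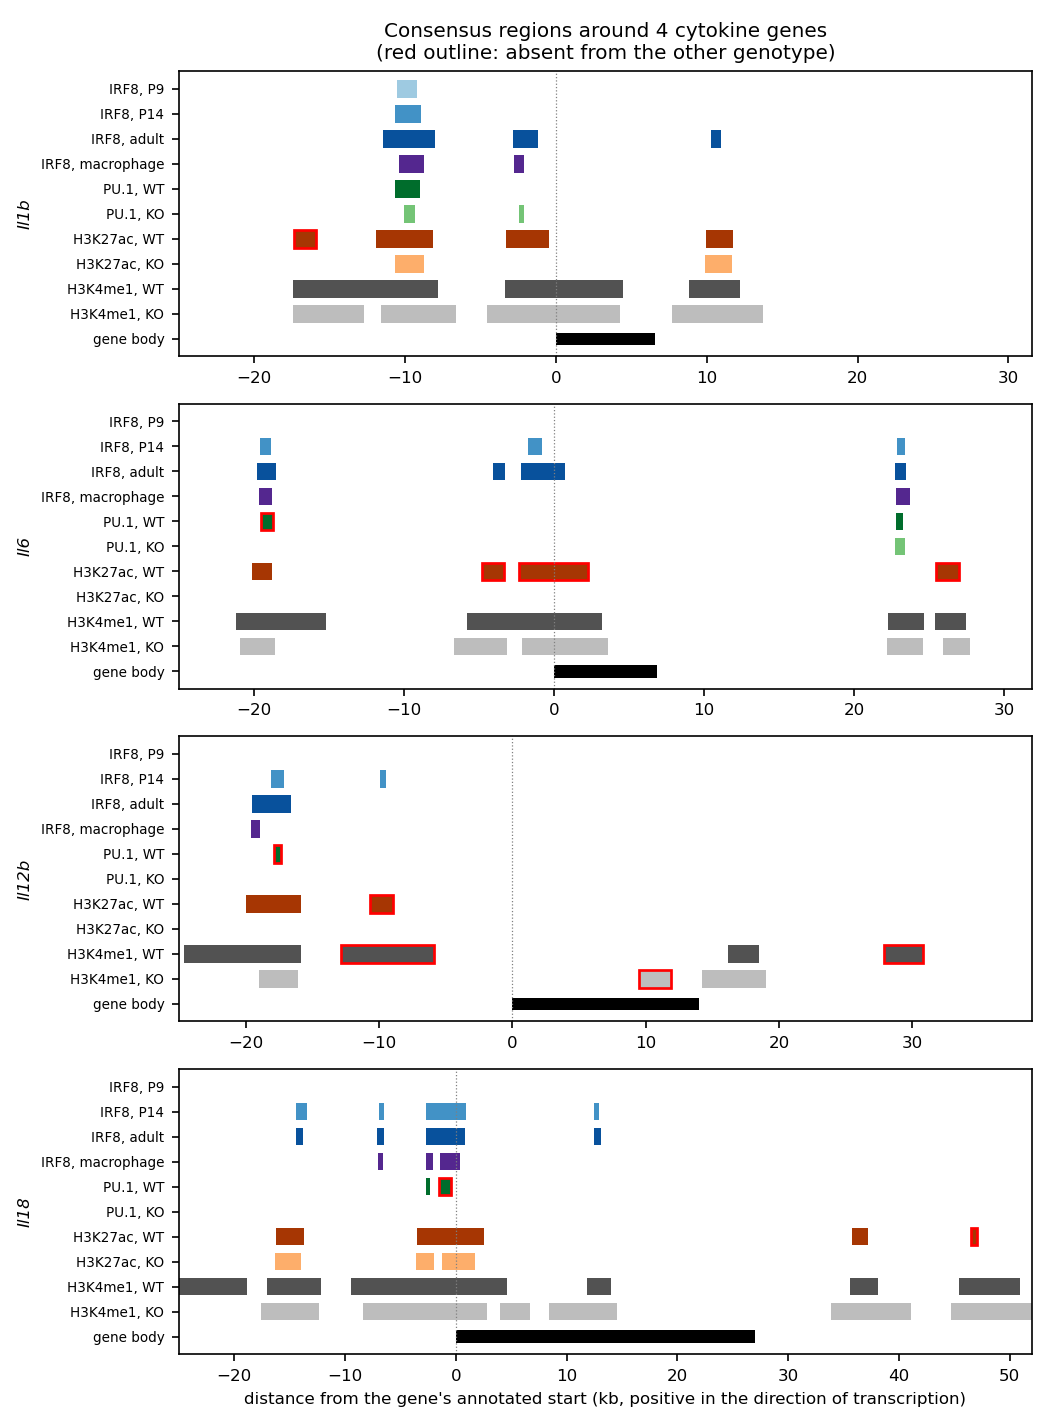
Consensus regions of each group (rows) around Il1b, Il6, Il12b and Il18, by distance from the gene's annotated start (x axis, kb, positive in the direction of transcription). Black bars are the gene bodies, and a red outline marks a WT or KO region with no peak in either list of the other genotype, as for PU.1 19.1 kb upstream of Il6 and 17.6 kb upstream of Il12b.

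PU.1 regions differed between WT and KO microglia at 4 of the 7 cytokine genes that had one. In WT, 10 PU.1 consensus regions lay at 7 genes (22.4% of all genes had one). Of these 10 regions 4 had no peak in either KO list, against 25.1% of all 5359 WT PU.1 regions. Of all genes with a WT PU.1 region, 28.7% had a lost one. Among WT PU.1 regions that overlapped an adult IRF8 consensus region, 3 of 9 were lost at the cytokine genes, against 23.2% of all such regions. The 6 microglia marker genes had 18 PU.1 regions in WT, 6 of them lost, and 11 in the KO. The counts were 1 and 0 for oligodendrocyte markers (1 lost), 1 and 2 for astrocytes (0 lost) and 1 and 1 for B cells (0 lost). The other marker lists had 0 in both. No genotype comparison here carries a p-value, because 2 libraries against 2 cannot give an exact permutation p under 0.333.

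The region 19.1 kb upstream of Il6 (chr5:29993560-29994412) had PU.1 fold enrichments of 10.1 and 4.14 in WT and no peak in the KO. The region 17.6 kb upstream of Il12b (chr11:44382200-44382726) had 5.04 and 4.45, that in the Il15 intron (chr8:82370764-82371407) 4.04 and 4.14, and that 0.955 kb upstream of Il18 (chr9:50553335-50554410) 5.19 and 3.02. The sites at Il6, Il12b and Il18 lay in adult IRF8 consensus regions. The Il15 site had IRF8 in 1 of 3 adult lists and 2 of 3 macrophage lists.

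The 6 WT regions that had a KO peak were led by the Il1b site 9.84 kb upstream (chr2:129380149-129381799), at 15.8 and 13.8 in WT, with 4.75 and 9.56 at the KO consensus region there. At Il1a the site 10.3 kb upstream had 13.6 and 12.1 in WT and 10.2 and 14.9 in the KO, and the site by the start had 11.6 and 9.31 in WT and 5.86 and 4.16 in the KO. At Il6, the site 23.1 kb past the start had 4.83 and 5.03 in WT and 6.23 and 6.05 in the KO. The site in the Tnf window, 15.8 kb past the start in an intron of Lst1, had 10.1 and 3.6 in WT and 9.88 and 3.02 in the KO. The Il18 site 2.58 kb upstream had 8.07 and 6.21 in WT and a peak in 1 of 2 KO lists. Lists were scaled separately, so these values describe each list. The lost regions stood at mean percentiles of 22.0 to 60.5 within their lists and the 6 others at 53.8 to 98.5. With peaks kept only at a −log10 p of at least 10, 4 WT regions were left and 0 of them were lost, against 28.1% of all WT regions so kept. With all lists cut to the same length, 3 of 9 were lost, at Il6, Il12b and Il18, against 24.9% of all. PU.1 replicate 2 was called with a looser threshold and another control in both genotypes, so the genotypes were also compared within each replicate number. Within replicate 1, 10 of 22 WT regions at the cytokine genes had no KO peak, against 66.4% of all WT regions, and within replicate 2, 6 of 12, against 57.5%. The share at the cytokine genes was thus above that of all regions for consensus regions as reported and at equal length. It was below that of all regions at a −log10 p of at least 10 and within each replicate. Counted as absent from the KO consensus, 5 of 10 regions were lost, against 48.0% of all.

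In the KO, 9 PU.1 consensus regions lay at 6 cytokine genes (20.9% of all genes had one), and 0 of the 9 were absent from both WT lists, against 16.5% of all KO regions. Of these, the sites at Il27 (10.1 kb past the start, in an intron of Cln3), Osm (13.9 kb upstream), Il1b (2.31 kb upstream) and Il1a (12.6 kb past the start) had a peak in 1 of 2 WT lists and so no WT consensus. With a PU.1 library left out, KO regions absent from WT were 3 of 9 (WT replicate 1 out) and 1 of 9 (WT replicate 2 out). They were 4 of 14 without KO replicate 1 and 5 of 18 without KO replicate 2. The share over all regions was not computed for these settings.

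H3K27ac, the mark of active enhancers, covered 37 WT consensus regions at 9 cytokine genes (61.7% of all genes had one) and 15 KO consensus regions at 6 genes (30.1%). Of the 37, 12 had no peak in either KO list, which is 32.4%, against 34.0% of all WT regions. The 12 lay at 8 of the 9 genes, where 57.1% of all genes with a region had a lost one. Of the 20 regions that overlapped adult IRF8, 3 were lost, against 21.0% of all such regions, and of the other 17, 9 were lost, against 41.2%. Depth moved with genotype: 20.2 and 15.4 M fragments in WT, 14.7 and 8.57 M in the KO. KO replicate 2 listed 31524 regions, against 88400 in replicate 1 and 72354 and 72875 in WT. Within replicate 1, 24 of 52 WT regions had no KO peak, against 57.4% of all, and within replicate 2, 40 of 54, against 85.4%. Over the whole genome, H3K27ac consensus regions numbered 36697 in WT and 10555 in the KO. Markers of microglia and of other cells had fewer H3K27ac regions in the KO as well. The 6 microglia genes had 42 in WT, 13 of them lost, and 17 in the KO. The counts were 18 in WT and 4 in the KO for oligodendrocytes (6 lost), 6 and 0 for T cells (4 lost), 4 and 0 for peritoneal macrophages (3 lost), 3 and 1 for B cells (1 lost) and 2 and 1 for astrocytes (1 lost), and neurons and neutrophils had 0 in both. The part of depth and of other cells in the H3K27ac counts was not tested.

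Il6 had 3 of its 4 WT H3K27ac regions lost. The promoter region (chr5:30010767-30015388) was at 11.8 and 9.49 in WT, at a mean percentile of 95.0, with no KO peak, and its AP-1 and NF-kB matches are shown above. The regions 4.05 kb upstream (6.29 and 4.24) and 26.3 kb past the start (5.35 and 4.07) were lost as well. The distal region 19.5 kb upstream (8.64 and 7.89) had a peak in 1 of 2 KO lists, as did the Il12b region 17.9 kb upstream, at 17.3 or more in both WT lists the most enriched of the 37 (mean percentile 99.8). The further Il12b region 9.82 kb upstream (3.73 and 7.2) was lost. Both genes thus had H3K27ac consensus regions in WT and none in the KO, as did Il27, whose only WT region lay in Cln3. Over all genes, 61.7% had a consensus region in WT and 30.1% in the KO. Each KO list still held at least 1 H3K27ac region in the windows of Il6, Il12b and Il27, so the mark was not absent there.

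Elsewhere the lost H3K27ac regions were 1 or 2 per gene. Il1a lost 2 of 5 (4.17 kb inside the gene and 4.38 kb upstream), Il1b 1 of 4 (16.7 kb upstream) and Il18 1 of 4 (in an intron of Sdhd). Tnf lost 1 of 5, over a coding exon of Ltb, and Osm lost 2 of 5, both in introns of Lif, so these 3 belong to the windows and may not belong to Tnf or Osm. Il15 lost 1 of 7, a region at percentile 6.66. The H3K27ac regions at the Il1b site 10.0 kb upstream, over the Il1a and Il18 starts and over the Osm start had peaks in both KO lists. None of the 15 KO regions was absent from WT, against 10.9% of all KO regions.

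**Figure D4:**
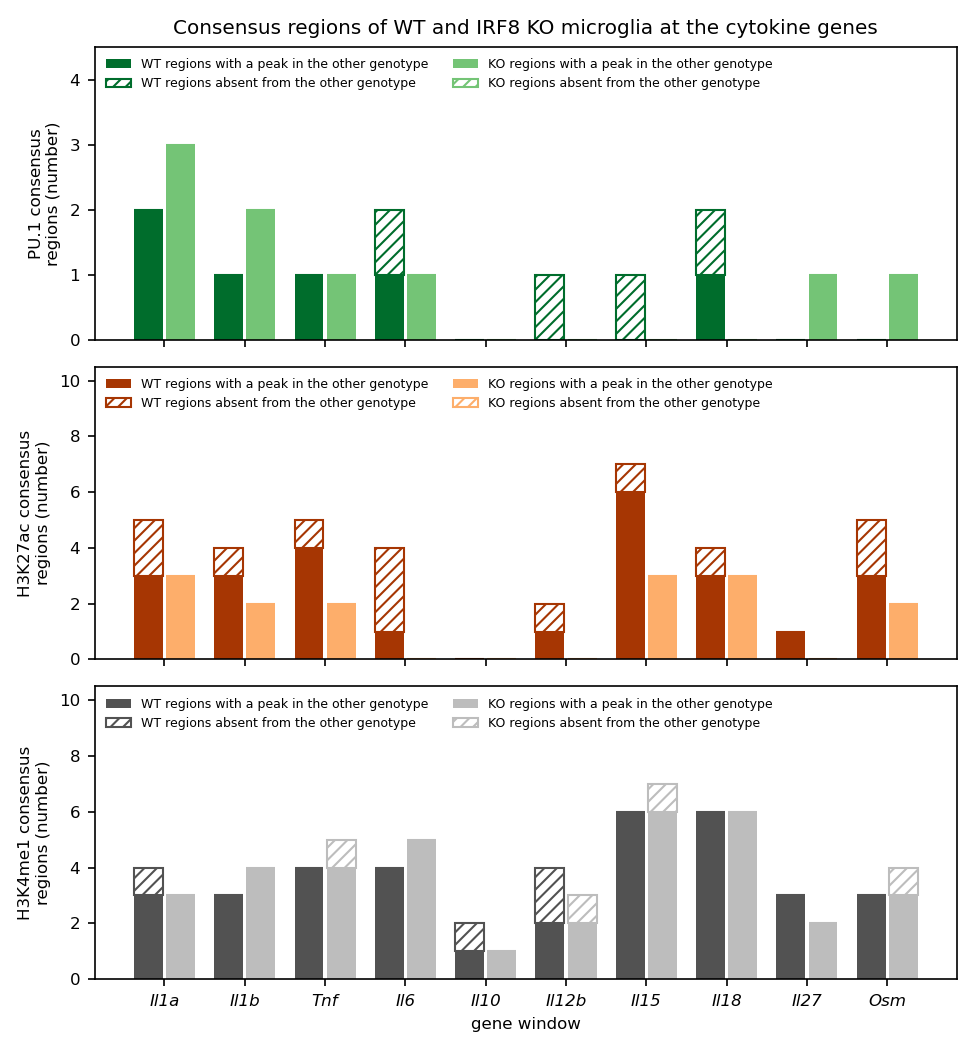
Number of PU.1 (top), H3K27ac (middle) and H3K4me1 (bottom) consensus regions at each cytokine gene (x axis), in WT (darker) and KO (lighter), with regions that have no peak in either list of the other genotype hatched. Il6 has 3 of 4 WT H3K27ac regions hatched, and hatched PU.1 regions stand at Il6, Il12b, Il15 and Il18.

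H3K4me1, the mark of enhancers in general, was present at all 10 cytokine genes in both genotypes (79.6% of all genes in WT and 82.1% in the KO). Of 39 WT regions 4 were lost, which is 10.3%, against 13.0% of all regions: at Il1a (15.7 kb upstream), Il10 (20.2 kb past the start) and Il12b (9.36 kb upstream and 29.3 kb past the start). The Il12b region 9.36 kb upstream (chr11:44387223-44394190) overlapped the lost H3K27ac region there. Of 40 KO regions 4 were absent from WT, which is 10.0%, against 23.8% of all KO regions: at Tnf, Il12b, Il15 and Osm. None of these 8 regions overlapped an adult IRF8 consensus region. Of the regions that did, 0 of 19 were lost in the KO, against 2.86% of all such regions, and 0 of 19 KO regions were absent from WT, against 0.746%. At Il6 all 4 WT H3K4me1 regions had KO peaks, where 3 of 4 H3K27ac regions did not. Depth ran opposite ways for these marks: the H3K4me1 libraries had 14.5 and 14.1 M fragments in WT and 15.8 and 23.9 M in the KO, and KO replicate 2 listed 189351 regions. Over the whole genome, H3K4me1 consensus regions numbered 49737 in WT and 62025 in the KO. Every marker list had more H3K4me1 regions in the KO, that of microglia included (20 in WT and 24 in the KO, 4 of them absent from WT). The 3 neuron genes had 14 and 53, of which 25 were absent from WT, at 2 genes, and the 3 T cell genes 7 and 14, of which 5 were absent. The counts were 14 and 17 for peritoneal macrophage markers, 13 and 18 for oligodendrocytes, 9 and 12 for astrocytes, 6 and 10 for B cells and 3 and 4 for neutrophils. The part of depth and of other cells in these counts was not tested.

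The motifs were counted over whole consensus regions. The ETS-IRF composite was in 5 of the 10 WT PU.1 regions at the cytokine genes and in 19.9% of all WT PU.1 regions. The IRF element was in 5 of 10 and in 13.3% of all. The PU.1 site was in 3 of 10 against 32.3%, the AP-1 site in 3 of 10 against 22.2%, and the NF-kB site in 1 of 10 (Il1b) against 4.31%. The regions at the cytokine genes had a median width of 748 bases, against 686 for all. In the central 300 bases the composite was in 2 of 10 against 10.9% and the IRF element in 2 of 10 against 5.02%. Of the 23 adult IRF8 regions at the cytokine genes, 6 held the composite against 24.1% of all adult IRF8 regions, and 9 held the IRF element against 20.3%. In the central 300 bases of these the counts were 1 of 23 against 8.72% and 2 of 23 against 5.86%. Over the whole IRF8 regions, the PU.1 site was in 6 of 23 against 23.4%, the AP-1 site in 10 against 32.2% and the NF-kB site in 4 against 6.28%. In the central 300 bases these were in 3, 2 and 1 of 23, against 8.83%, 9.15% and 1.58%. The IRF8 regions at the cytokine genes had a median width of 1387 bases, against 1085 for all. An IRF element can begin at the GAAA of a composite, and the GGAA of a PU.1 site can be that of a composite. All 4 lost regions held a composite or an IRF element, and so did 5 of the 6 others, the exception being the Il6 site 23.1 kb past the start. In the printed Il15 window the IRF element lies before the start of the called region and the composite inside it. In the 250 bases before the start, a match to the NF-kB motif was in 1.41% of 32851 promoters and one to the AP-1 motif in 6.75%. The promoter table held 6 of the 10 genes: Il1a had an AP-1 match, Il6 both, and Il1b, Il12b, Il18 and Tnf no match to any of the 5 motifs.

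The other genes of the cytokine pathways were read in the same way from a list of 49: 12 further cytokines and antagonists, 19 receptors and 18 signalling regulators. Adult IRF8 consensus regions were at 39 of the 49, against 50.6% of all genes, namely 9 cytokines, 12 receptors and 18 regulators. A WT H3K27ac consensus region was at 45 of the 49, and among all genes with one the share with adult IRF8 was 76.4%. With each region counted once, 2 of 27 WT PU.1 regions at these genes were lost, against 25.1% of all, at Jak1, the kinase of many cytokine receptors, and Tnfaip3, an inhibitor of NF-kB signalling. Of the 14 at receptors 0 were lost. Of 26 KO PU.1 regions 2 were absent from WT, against 16.5% of all, at Tnfsf9 and at a region in the windows of both Il18r1 and Il18rap, which encode the interleukin-18 receptor. Of 178 WT H3K27ac regions 44 were lost, at 26 genes, against 34.0% of all. Of these 178, 9 lay in windows of the 10 cytokine genes too, 3 of them lost. Il6st, which encodes the shared receptor chain gp130 of interleukin-6 and oncostatin M, had 5 of 6 lost. Il1r1, Lifr and Tnfrsf1b each had 3 lost, of 7, 8 and 9. Jak1 had 2 of 20, Il10ra 2 of 8, Il10rb 2 of 6 and the decoy receptor Il1r2 2 of 4. Ltb (3 of 6) and Lif (2 of 4) share regions with the Tnf and Osm windows.

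Presence or absence over the 25 lists was compared between each cytokine gene and all genes whose windows did not overlap it. Il1b had a region in all 25 lists, a pattern shared with 302 genes. Il6 (20 lists) shared its pattern with 279 genes, Il18 (22) with 177, Il1a (23) with 32, Tnf (20) with 15 and Il15 (20) with 8. The pattern of Il12b, with regions in 20 lists and in neither KO PU.1 list, was shared with 2 genes, Calcrl and Fez2. No gene had the same pattern as Il10, Il27 or Osm. Tmem203 was the only gene that differed from Il10 in 1 list. From Il27, 49 genes differed in 1 list, of which 1700092M07Rik and 2200002D01Rik are the first by symbol, and from Osm 9 genes, of which Elk3 and Gm48551 are the first. Among the genes with an identical pattern, the first by symbol were AI481877 and Akna for Il1a, A130010J15Rik and Bag6 for Tnf, and Acvr2a and Bcas1 for Il15.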

How the data were processed

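The deposited files are 25 peak lists, 1 per library. Per the submitters' processing notes, reads were handled with Trim Galore, Bowtie2, deepTools and MACS2 on mm10, with no roles or order given. Peaks were called for each library separately, per the file headers, with MACS 2.2.7.1 for IRF8 and PU.1 and 2.2.6 for the histone marks, against an IgG control. The threshold was a q-value of 0.01, except 0.05 for replicate 2 of PU.1, and for H3K4me1 broad regions with a minimum length of 1000 bases were called at a p-value of 0.01. The authors' values per peak are the pileup (fragment coverage signal), the −log10 p-value and the fold enrichment against that control, and none was compared between lists as a level. Where values of several lists stand side by side they describe each list.

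Peaks of the same chromosome, start and end were counted once. Regions found in at least 2 libraries of a group (overlap of at least 1 base) were merged into consensus regions. A WT region was called lost, and a KO region absent from WT, where neither list of the other genotype had an overlapping peak. Percentiles rank the −log10 p within a list. Replicates are the separately labelled libraries, and no pair of lists had the same number of regions. The 10 genes and all other lists were chosen with earlier results of these data known. The text names all 10 genes, the adult IRF8 region of highest mean percentile and every PU.1 consensus region of each, up to 10 pathway genes with the most lost PU.1 and H3K27ac regions, and up to 2 genes of like pattern per gene. Ties were taken by symbol, so Rel and Rela, with 2 lost H3K27ac regions each, were left out of the 10. Other regions named were chosen after their values were seen. The age test was tested on simulated data with 200 of 21938 genes changed: at a 12-fold change 92.0% of them had an unadjusted p under 0.05 (2.01% of the rest), and 0% passed the adjustment. With few arrangements, the smallest p passes the adjustment only where many genes reach it. Sequences and motifs were read from RefSeq GRCm38.p6. Alternatives were a −log10 p of at least 10, an overlap of 50%, a window of 5 kb, lists of equal length, a peak in any 1 library, absence from the other consensus, presence in place of number, the replicate block, and each library left out. The comparison within each replicate number of WT and KO was added after seeing the data. Python 3 packages were used (pandas, scipy, pysam). Per the labels, 4 of 7 P9 and 2 of 3 KO H3K27ac libraries are given.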

Additional observations from a re-analysis of the deposited data

Results flagged for a closer look

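In the P9 group of 4 libraries, 4 of 9 measures that varied had 1 library apart from the rest (gap over range 1.00, above Dixon's 95% critical value for 4 samples). Each was a count of IRF8 regions in a gene window that was 1 in the library named and 0 in the other three: Il15, Il18 and Il27 in replicate 3, the deepest and longest P9 list (20.9 M fragments, 2068 regions), and Osm in replicate 1. Chance alone flags about 1 in 20 such groups, and for counts of 0 and 1 the measure is at its largest whenever 1 library differs. These regions entered no P9 consensus, and leaving out P9 replicate 3 left 1 of the 10 genes (Il6) past the threshold in the age test, against 10.8% of the genes tested, and leaving out any other P9 library left the same gene.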

How the results depend on the processing

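The counts depended on how much of each list was read. IRF8 consensus regions at the 10 genes, as reported 3 at P9, 18 at P14, 23 in the adult and 24 in macrophages, became 8 at P14, 15 in the adult and 11 in macrophages at a −log10 p of at least 10. At that limit 7, 9 and 8 of the 10 genes had one, against 18.2%, 34.8% and 20.6% of all genes. The regions became 1, 8, 11 and 15 with a 5 kb window, and 4 at P14, 4 in the adult and 1 in macrophages at equal list length. With a peak in any 1 library they became 10, 29, 50 and 45. These lay at 7, 10, 10 and 10 genes, against 15.0%, 56.7%, 72.1% and 67.5% of all genes. Leaving out each library gave 2 to 3 at P9, 11 to 18 at P14, 13 to 23 in the adult and 3 to 24 in macrophages.

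Lost PU.1 regions, 4 of 10 as reported, became 0 of 4 at a −log10 p of at least 10 (28.1% of all), 2 of 4 with a 5 kb window and 10 of 24 with any 1 library, and 4 to 9 with a library left out (9 of 22 without WT replicate 2). KO PU.1 regions absent from WT, 0 of 9, became 1 of 6 (−log10 p, against 19.6% of all), 1 of 8 (equal length, against 17.6%), 9 of 23 (any 1 library) and 4 of 9 (absence from the other consensus), and 1 to 5 with a library left out. Lost H3K27ac regions, 12 of 37, became 6 of 20 (5 kb), 38 of 67 (any 1 library) and 24 of 37 (other consensus), and 12 to 27 with a library left out. Regions of that mark absent from WT, 0 of 15, became 15 of 52 with any 1 library and 0 to 12 with a library left out (12 of 47 without KO replicate 2, the shallowest). Lost H3K4me1 regions, 4 of 39, became 2 of 37 (50% overlap), 0 of 20 (5 kb), 12 of 53 (any 1 library) and 7 of 39 (other consensus), and 5 to 9 with a library left out. H3K4me1 regions absent from WT, 4 of 40, became 2 of 25 (5 kb), 2 of 38 (equal length, against 17.3%) and 25 of 71 (any 1 library), and 4 to 20 with a library left out. With any 1 library the shares over all regions were 62.6% and 62.4% for PU.1 (lost, then absent from WT), 63.7% and 60.3% for H3K27ac and 47.0% and 58.6% for H3K4me1, each above that at the cytokine genes. Against the other consensus they were 39.1% for KO PU.1, 78.4% for lost H3K27ac and 30.3% for lost H3K4me1. With a library left out the total of regions could change as well, and the share over all regions was not computed. For these counts the cause was not tested.

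Genes with an age trend, 5 of 10, became 2 at a −log10 p of at least 10 (Il6 and Il18, against 16.8% of genes tested), 2 with a 5 kb window (Il1b and Il6, against 25.3%), 2 by presence alone (Tnf and Il6, against 12.2%), 0 of 7 at equal list length, and 1 to 5 with a library left out. With the replicate number as a block the count was 0 of 10, and 0 of 16464 genes, under an exact test whose smallest p is 0.00926 over 216 arrangements (4 cytokine genes and 5623 genes at an unadjusted p under 0.05). Taking only the lists of replicate 1 as a replicate block, lost regions were 10 of 22 for PU.1, 24 of 52 for H3K27ac and 11 of 48 for H3K4me1, against 66.4%, 57.4% and 49.1% of all regions. KO regions absent from WT were 6 of 18, 13 of 47 and 13 of 55, against 53.6%, 61.1% and 51.8%. With replicate 2 only, lost regions were 6 of 12, 40 of 54 and 11 of 52, against 57.5%, 85.4% and 51.2%, and KO regions absent from WT 8 of 14, 3 of 21 and 21 of 64, against 67.7%, 62.4% and 66.2%. In both replicates each share at the cytokine genes was below that of all regions. This setting was chosen after seeing the data. The labels give no shared animal or day behind a number, and only for PU.1 do the headers show a control and threshold shared by number. Depth limits the lists: a region that is not listed was not detected at 7.25 to 24.7 M fragments, and is not shown to be unbound.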
